A study of Mus musculus with 40 samples.

Results

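The 37 genes described here encode the actin cytoskeleton and the small GTPases that direct it, measured by RNA sequencing of mouse kidney cortex. They are the actins (Actb, Actg1, Acta2), actin bundlers and contractile proteins (Tagln, Tagln2, Myl6, Myl9, Myl12a, Myl12b, Myh9, Myh10, Tpm1, Tpm2, Tpm3, Tpm4), the branching complex Arp2/3 (Arpc1a, Arpc1b, Arpc2, Arpc3, Arpc4, Arpc5, Actr2, Actr3), regulators of filament turnover and ends (Cfl1, Cfl2, Pfn1, Cap1, Capza1, Capza2, Capzb), 5 small GTPases (Rhoa, Rac1, Cdc42, Rap1a, Rap1b), the intermediate filament protein Vim and the crosslinker Flna. The members were chosen by symbol, and all 37 were found once each among the 55401 genes of the count table. The list was drawn up with the difference between MitoGamide and vehicle in Akita mice already known, in which Rap1a, Rap1b and Arpc3 stood out, so that difference is given below as a description and not as a test. All 37 passed the filter on low counts in each of the 8 comparisons.

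Actin monomers assemble into filaments, and the filaments are remodelled without pause. Profilin (Pfn1) feeds monomers to growing ends, the capping protein heterodimer (Capza1, Capza2, Capzb) blocks those ends, cofilin (Cfl1, Cfl2) severs older filaments and Arp2/3 starts new branches from the sides of existing ones. Small GTPases switch this machinery on and off, and among them Rap1 controls adhesion through integrins and cadherins. In the kidney the foot processes of podocytes, the brush border of the proximal tubule and the contractile mesangial and vascular cells all rest on actin.

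The mice were on the C57BL/6J strain, either heterozygous for the Ins2-Akita allele, which makes beta cells produce a misfolded insulin and causes diabetes, or WT littermates. In the ethanol arm, male mice of both genotypes were treated by daily oral gavage from 6 to 22 weeks of age. They received 10% ethanol in water as vehicle (groups WT ethanol and Akita ethanol) or MitoGamide at 10 mg/kg (WT MitoGamide and Akita MitoGamide), a compound targeted to mitochondria that scavenges the reactive dicarbonyl methylglyoxal. In the water arm, both genotypes received water (WT water and Akita water) or MitoQ (WT MitoQ and Akita MitoQ), a mitochondria-targeted antioxidant. The labels give the water arm the same protocol text, with treatment from 6 to 22 weeks of age, but that text names neither water nor MitoQ, so the dose and route in this arm are not stated here. Each of the 8 groups held 5 mice, with 1 library per mouse, and a library stands for whole cortex, so fewer cells of a type and less RNA per cell cannot be told apart.

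Many actin and contractile genes carry a CArG box, the site bound by serum response factor, close to their start. It was searched for by name on both strands, where it reads as the same class of letters, in the windows from 250 bases before to 50 bases after the start given by RefSeq on GRCm38.p6. Of the 37 members, 33 had a window, and 4 of these (12.1%) held a match, against 1.81% of the 27025 genes in the table. The genes were picked from the class of which many carry this box, so the share is not independent of the choice of the list. Actb, Tagln, Rac1 and Rap1a had no window. The capitals mark the box, and each stretch reads 5′ to 3′ on the strand of its gene:
Actg1 (chr11:120348551-120348610, minus strand): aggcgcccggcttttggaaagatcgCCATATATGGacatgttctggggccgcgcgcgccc
Myl6 (chr10:128493025-128493084, minus strand): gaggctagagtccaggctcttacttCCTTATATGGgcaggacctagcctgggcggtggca
Myl9 (chr2:156775278-156775337, plus strand): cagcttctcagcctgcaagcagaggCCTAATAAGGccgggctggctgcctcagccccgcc
Arpc4 (chr6:113377863-113377897, plus strand): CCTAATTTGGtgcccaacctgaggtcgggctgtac
The first base of the box lay 50 bases before the start in Myl6, 90 in Actg1, 161 in Myl9 and 250, at the edge of the window, in Arpc4. With MitoGamide in Akita mice, the comparison that chose the genes, Myl9 had a log2 fold change of 0.61. Actg1 had 0.032, Arpc4 0.014 and Myl6 -0.028, and whether the 4 genes differed was not tested. A match is a description of these letters and not a bound site.

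Totals ranged from 9106654 to 24321424 estimated counts per library. The tubular, podocyte, endothelial, fibroblast, smooth muscle and leukocyte markers used to check the tissue were led by those of the proximal tubule, whose 6 markers summed to 18704 to 25696 CPM (counts scaled to a common library total) in WT ethanol mice, and no marker of any list was at 0 in all 40 libraries. The 20 most abundant genes held 51 to 75.1% of the counts in 5 libraries and 30.8 to 49% in the other 35. The 5 were replicates 3 and 4 of WT water, replicate 3 of WT MitoQ and replicates 2 and 5 of Akita water, all of the water arm. In these 5 the 37 genes together took 0.126 to 0.279% of the counts, below the 0.289 to 0.415% of all others. Transcripts of the mitochondrial genome took 22.5 to 49.2% of the counts in the 5 and 14.3 to 36.7% in the rest. The counts of called members in the water arm are therefore given with and without these 5.

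Levels are given as CPM scaled with TMM factors over the 40 libraries, and are compared between genes only per kilobase of the longest protein-coding transcript. On that scale the median over 40 libraries was highest for the cytoplasmic actins, Actb at 335 and Actg1 at 239 CPM per kilobase, followed by the myosin light chain Myl6 at 84.6 and Pfn1 at 79.1. Among the GTPases, Rhoa had 71.9, Cdc42 59.4, Rac1 23.2, Rap1b 21.4 and Rap1a 11.6 CPM per kilobase. Among the Arp2/3 subunits the level ran from 59 in Arpc2 to 5.68 in Arpc1b, with its alternative Arpc1a at 19.4. The lowest levels after these were those of Acta2 (smooth muscle actin) at 5.63 and Tpm2 at 2.04, with Tagln at 7.25. Tpm2 was also the least deeply counted, with 27 to 147 counts per library.

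The genes varied little between mice of the ethanol arm and much in the water arm. The median coefficient of variation over the 37 genes was 7.35% in WT ethanol and 6.21% in Akita ethanol mice, and 32.1% in WT water and 29.6% in Akita water mice. It was 10.8% and 10.8% with MitoGamide in WT and Akita mice, and 24.9% and 22% with MitoQ. In both MitoGamide groups the least steady genes were those of contractile cells and Flna, led by Tagln with 50.9% in WT MitoGamide mice and by Tpm2 with 39.8% in Akita MitoGamide mice. A contractile gene was also the least steady in WT ethanol (Myl9, 15.9%), Akita ethanol (Tagln, 34.4%), WT MitoQ (Tpm2, 53.5%) and Akita MitoQ mice (Acta2, 40.5%). In the water groups it was Cfl2 (60.5%, WT) and Capza2 (58.1%, Akita).

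**Figure D1:**
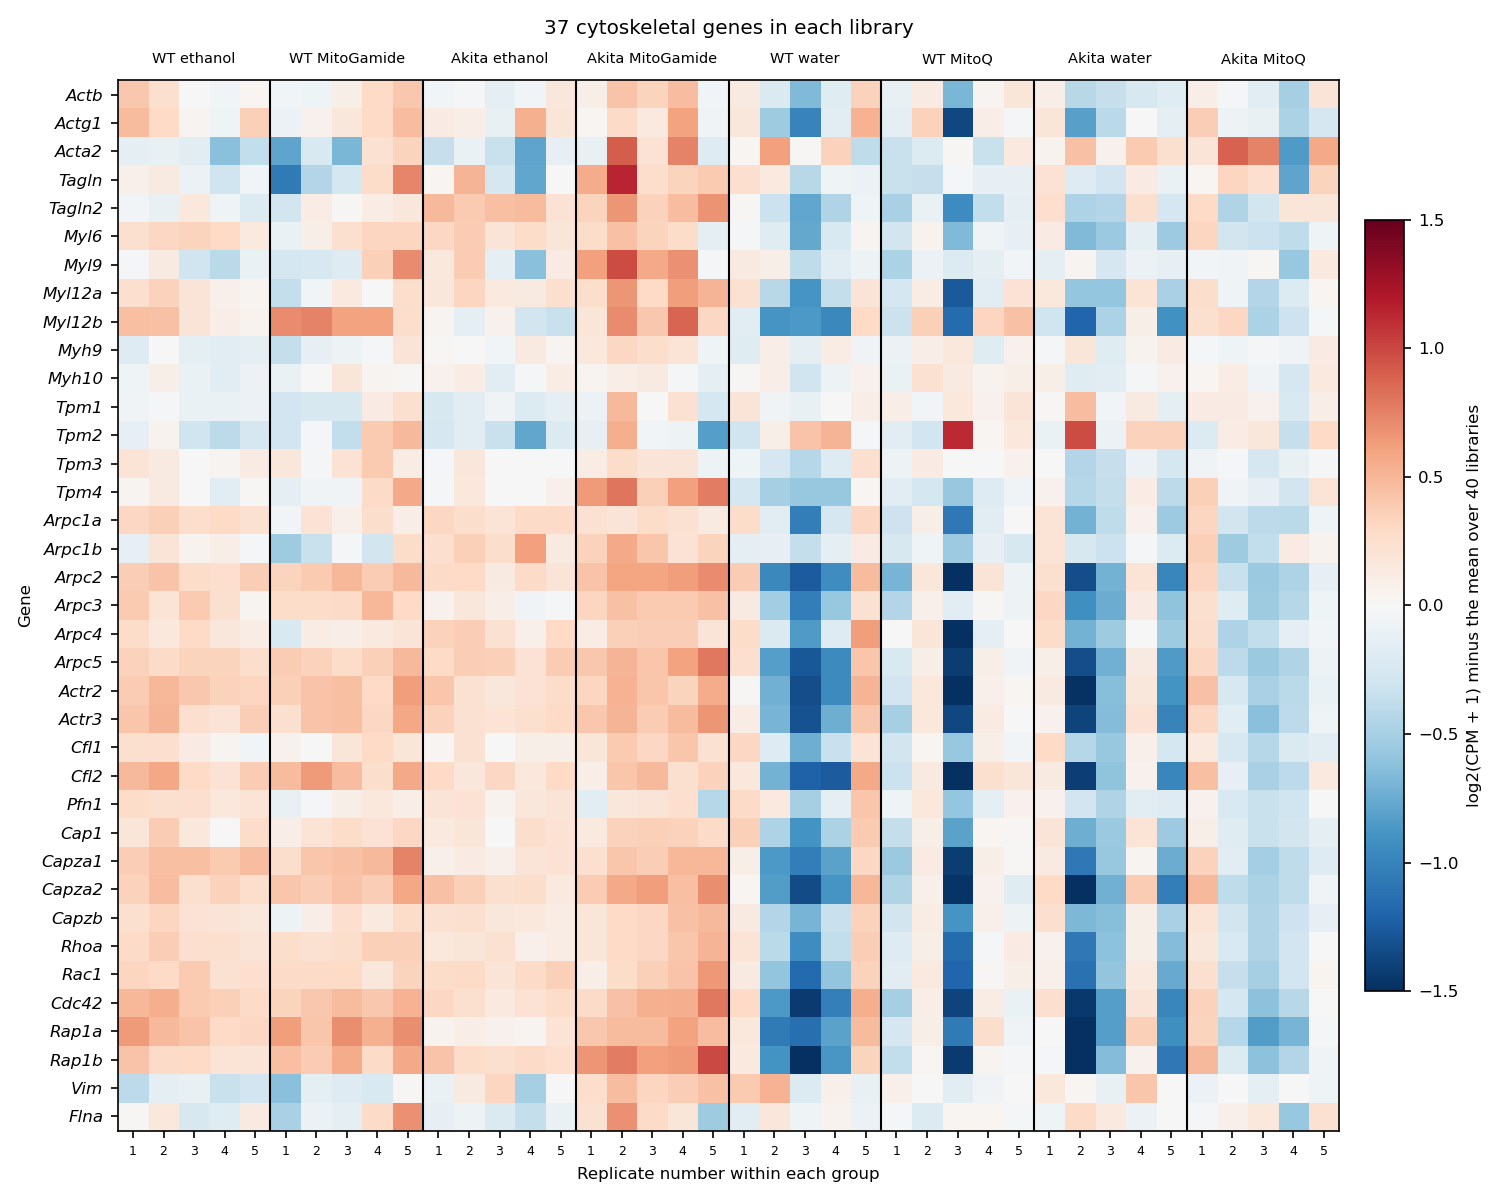
Level of each of the 37 genes (rows) in the 40 libraries (columns, by group and replicate number), as log2(CPM + 1) minus the gene's mean over all libraries, with red above and blue below the mean. At least 28 of the 37 rows are blue in WT water replicates 2 to 4, WT MitoQ replicates 1 and 3, Akita water replicates 2, 3 and 5 and Akita MitoQ replicates 2 to 4, and at most 22 in any other library.

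MitoGamide was first set against its ethanol vehicle in Akita mice, the comparison that chose the genes, and the following values are a description of it. Of the 37 log2 fold changes 33 were above 0, and their median was 0.22 against -0.0021 over all 17051 genes tested. In edgeR's quasi-likelihood test 6 of the 37 passed an adjusted p of 0.05, all of them higher, where 1.26% of all genes passed in either direction. DESeq2 called 9 of the 37, and 5.99% of all genes. For 9 of the 37 the 5 treated values all lay above the 5 vehicle values, where 7.59% of all genes had groups that did not overlap.

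Both Rap1 genes were among them. Rap1a (ENSMUSG00000068798.10, chr3:105727267-105801336, minus strand), the GTPase that activates integrins, had 25.6, 26.3, 25.7, 25.3 and 28.5 CPM in the Akita ethanol libraries and 33, 34.6, 34.6, 37.8 and 34.4 CPM in the Akita MitoGamide libraries. Every treated mouse was above every vehicle mouse, with a log2 fold change of 0.40 ± 0.065 (SE). Its paralogue Rap1b (ENSMUSG00000052681.8, chr10:117813871-117846035, minus strand) had 67.3, 60.8, 59, 61.2 and 59.7 CPM on vehicle and 79.6, 85.4, 76.6, 78.1 and 99.9 CPM on MitoGamide. Here too the groups did not overlap, and the log2 fold change was 0.44 ± 0.086. Rhoa had 157, 160.1, 165, 149 and 152 CPM on vehicle and 159.6, 174, 175, 188 and 202 CPM on MitoGamide, a log2 fold change of 0.19 ± 0.076, and the groups overlapped.

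The subunits of Arp2/3 had a range of values. Arpc3 (ENSMUSG00000029465.14, chr5:122391878-122414184, plus strand), a small subunit that helps hold the complex to the mother filament, had 29.8, 32.1, 30.7, 27.4 and 28.3 CPM on vehicle and 35.8, 39, 37.8, 37.8 and 39 CPM on MitoGamide. Arpc2 (ENSMUSG00000006304.14, chr1:74236084-74268209, plus strand), a core subunit of the complex, had 86.3, 86.8, 77.4, 86 and 80.7 CPM on vehicle and 94.6, 106, 106, 109 and 115 CPM on MitoGamide. The treated mice were above the vehicle mice without overlap for both, with log2 fold changes of 0.35 ± 0.066 and 0.34 ± 0.068. Arpc5 (0.22) and Actr3 (0.22) also had groups that did not overlap, and Actr2 had 0.17 on the log2 scale. The other 3 subunits lay near 0, at 0.045 for Arpc1b, 0.014 for Arpc4 and -0.066 for Arpc1a. No test of the difference between subunits was run.

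Of the contractile genes, Tpm4 (ENSMUSG00000031799.10, chr8:72134975-72153142, plus strand), a tropomyosin of non-muscle filaments, had 39, 44.5, 39.99, 39.8 and 42.1 CPM on vehicle and 62.4, 70.3, 51.2, 61.4 and 68.5 CPM on MitoGamide. No treated value fell within the vehicle range, and the log2 fold change was 0.61 ± 0.091. The myosin regulatory light chain Myl12b (ENSMUSG00000034868.9, chr17:70973133-70990890, minus strand) had 34.2, 30.1, 34.8, 27.4 and 26.1 CPM on vehicle and 38.1, 55.1, 44.6, 61.8 and 41.6 CPM on MitoGamide, also without overlap, with a log2 fold change of 0.65 ± 0.13. Summed with the overlapping gene Gm49909, described below, the log2 difference was 0.34. Capza1 (ENSMUSG00000070372.11, chr3:104822779-104864505, minus strand), a capping protein subunit, had 36.7, 38, 36.9, 40.1 and 40.8 CPM on vehicle and 41.4, 46.9, 45.2, 49.5 and 49.8 CPM on MitoGamide. Its groups did not overlap either, and its log2 fold change was 0.27 ± 0.070. As a description, it was among the members called by DESeq2 and not among those called by edgeR.

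Acta2, Tagln and Myl9, genes of contractile cells, had less even differences. Acta2 (ENSMUSG00000035783.9, chr19:34241090-34255590, minus strand) had 9.11, 10.9, 9.16, 6.40 and 10.8 CPM on vehicle and 10.9, 23.1, 13.9, 20.5 and 10.2 CPM on MitoGamide. Tagln (ENSMUSG00000032085.5, chr9:45929619-45936058, minus strand), or transgelin, had 12.1, 17.2, 9.74, 6.40 and 11.7 CPM and 17.7, 27.2, 14.3, 15 and 15.8 CPM. Myl9 (ENSMUSG00000067818.6, chr2:156775420-156781658, plus strand), the regulatory light chain of smooth muscle, had 19.2, 22.7, 15.5, 10.7 and 18.7 CPM and 26.8, 34.7, 25.9, 28.2 and 16.8 CPM. Replicate 2 was the highest of its group for all 3, and replicate 5 was the lowest for Acta2 and Myl9, within the vehicle range. Their log2 fold changes were 0.76 ± 0.23, 0.65 ± 0.24 and 0.61 ± 0.20. As a description, none was among the members called by edgeR, and Acta2 was among those called by DESeq2. Vim (ENSMUSG00000026728.9, chr2:13573927-13582826, plus strand), the mesenchymal intermediate filament protein, had 15.3, 18.2, 20.8, 11.4 and 16.5 CPM on vehicle and 20.02, 23.1, 20.9, 21.6 and 22.8 CPM on MitoGamide, with a log2 fold change of 0.40 ± 0.13 and overlapping groups. Actb (ENSMUSG00000029580.14, chr5:142903115-142906754, minus strand) had 630.0, 636, 584, 627 and 728 CPM and 687, 870.0, 815, 888 and 627 CPM, a log2 fold change of 0.27 ± 0.10. The 4 members below 0 were Pfn1 (-0.15), Arpc1a, Myl6 (-0.028) and Myh10 (-0.0044), and the remaining members lay between 0 and 0.39, the value of Flna.

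Other measures moved with this comparison. The 6 endothelial markers summed to 315 to 361 CPM on vehicle and 405 to 596 CPM on MitoGamide, and the 6 fibroblast markers to 121 to 176 and 180.0 to 269 CPM, both without overlap. The 9 smooth muscle and pericyte markers, none of them a member, summed to 272 to 298 and 279.7 to 369 CPM, the 6 podocyte markers to 268 to 330.4 and 252 to 496 CPM and the 7 leukocyte markers to 39.9 to 55.4 and 44.1 to 62.6 CPM, all with overlap. Mitochondrial transcripts took 21.6 to 28.7% of the counts on vehicle and 28 to 35.4% on MitoGamide. Their part in the result was not tested. When plain library totals were used in place of TMM factors, the median over all genes moved to -0.15 and that of the members to 0.077, with 24 of 37 above 0, so that both medians moved down together. The calls were not steady. Leaving out any of the 5 vehicle libraries or MitoGamide replicate 2 left none of the 37 called and at most 0.0761% of all genes, and leaving out MitoGamide replicate 3, 4 or 5 gave 3, 1 and 9, where 0.591%, 0.174% and 4.67% of all genes were called. The count was 1 in a single fit of the 40 libraries (0.240% of all genes) and 1 with library totals (1.33%). It was 0 with the replicate number as a block (0%).

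**Figure D2:**
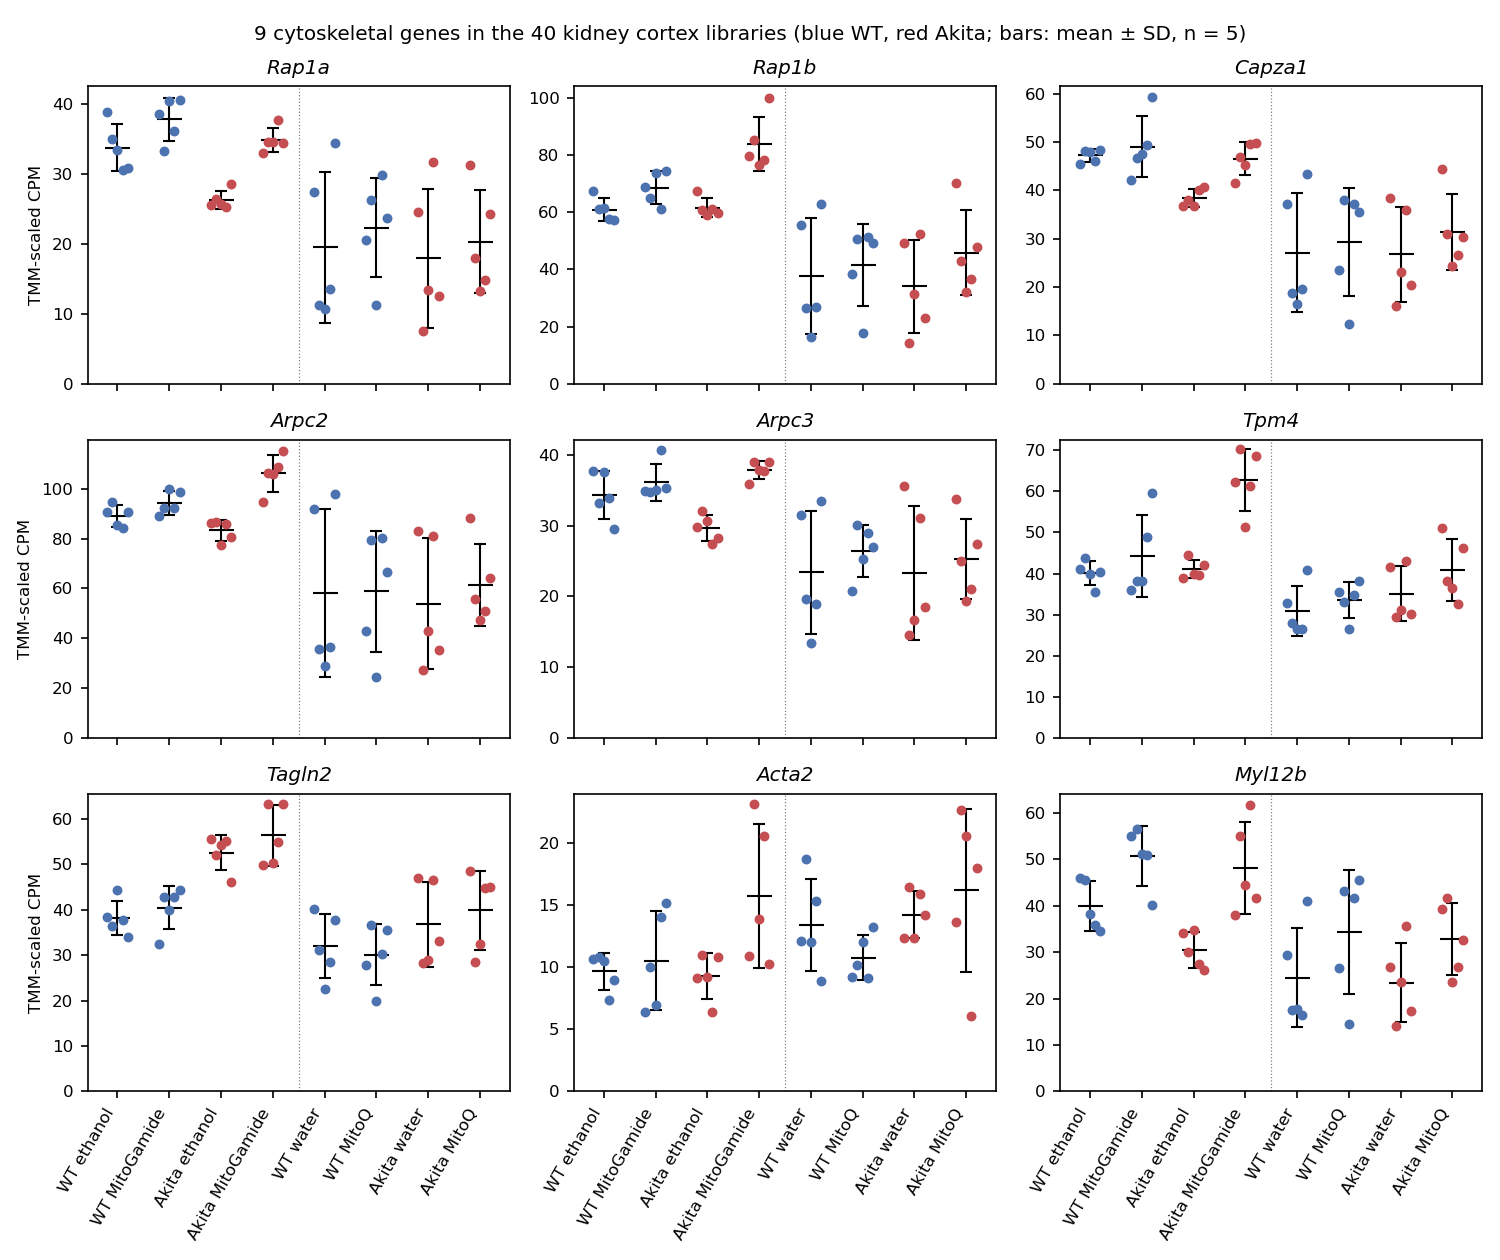
TMM-scaled CPM of 9 of the genes in each library (dots; blue WT, red Akita) with the mean ± SD of the 5 libraries of each group (black). In the ethanol arm, left of the dotted line, Rap1a, Rap1b, Capza1, Arpc2, Arpc3, Tpm4 and Myl12b are higher in Akita MitoGamide than in Akita ethanol mice without overlap, and in the water arm the values of most of the 9 genes are spread far more widely.

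The same compound in WT mice gives values that did not enter the choice of genes. None of the 37 passed the adjusted p, and neither did any of the 17395 genes tested in edgeR (0%). Of the 37, 5 had an unadjusted p under 0.05, where 1841 of all genes did. DESeq2 called 50 genes and no member. No member had groups that did not overlap, where 2.05% of all genes did. The log2 fold change was above 0 for 28 of 37, with a median of 0.061 against 0.00045 over all genes. Without WT MitoGamide replicate 5 the median was 0.0073 with 21 of 37 above 0, and without replicate 4 it was 0.033. With library totals the members' median was -0.038 against -0.10, with 10 of 37 above 0. That scaling lowered all genes alike, and the members stayed as far above the median of all genes as before.

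The WT values for the genes that stood out in Akita mice were smaller. Rap1a had 38.8, 35, 33.4, 30.6 and 30.8 CPM on vehicle and 38.5, 33.3, 40.4, 36.2 and 40.6 CPM on MitoGamide, overlapping groups with a log2 fold change of 0.18 ± 0.079 (adjusted p = 0.459). Rap1b had 67.3, 61.2, 61.4, 57.7 and 57.2 CPM and 68.7, 65.1, 73.8, 61.3 and 74.4 CPM (0.18 ± 0.067, adjusted p = 0.369). Both GTPases were higher in the mean on MitoGamide, and neither passed the test. Arpc3 had 37.7, 33.2, 37.6, 33.8 and 29.5 CPM on vehicle and 34.9, 34.7, 35, 40.8 and 35.3 CPM on MitoGamide, a log2 fold change of 0.081 ± 0.077, and replicate 4 alone exceeded the vehicle range. Arpc2 had 0.090 ± 0.054, Tpm4 0.15 ± 0.12 and Capza1 0.061 ± 0.075 on the log2 scale. Myl12b had the largest value among the light chains, with 46.1, 45.5, 38.3, 35.8 and 34.6 CPM on vehicle and 55.1, 56.5, 51.1, 51 and 40.2 CPM on MitoGamide (0.35 ± 0.11, adjusted p = 0.327). Summed with Gm49909 the log2 difference was 0.16. Myl12a, which Gm49909 also overlaps and which is not in this sum, had -0.16 ± 0.099.

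The genes of contractile cells spread most in WT MitoGamide mice. Acta2 had 10.6, 10.8, 10.5, 7.32 and 8.96 CPM on vehicle and 6.42, 9.97, 6.98, 14 and 15.1 CPM on MitoGamide. Tagln had 12.5, 13, 11, 9.32 and 11.4 CPM and 5.14, 8.37, 9.59, 14.5 and 20.2 CPM, and Myl9 had 16.9, 18.9, 13.8, 12.6 and 15.9 CPM and 14.1, 14.4, 14.8, 22.3 and 28.6 CPM. In each of the 3, replicate 1 was the lowest and replicate 5 the highest of the treated libraries. The highest lay above the vehicle range for all 3, and the lowest below it for Acta2 and Tagln. The log2 fold changes were 0.14 ± 0.22, 0.037 ± 0.26 and 0.29 ± 0.19. Vim (0.036 ± 0.11), Rhoa (0.034 ± 0.053) and Actb (0.020 ± 0.11) lay closer to 0 than their errors. The endothelial and fibroblast sums overlapped here, at 299.8 to 440.0 and 338 to 572 CPM for endothelial markers and 124 to 181 and 80.4 to 234 CPM for fibroblast markers. Mitochondrial transcripts took 20.1 to 22.6% of the counts on vehicle and 24.6 to 27.8% on MitoGamide. Side by side, 35 of the 37 log2 fold changes were larger in Akita than in WT mice, 27 were above 0 in both and 3 below 0 in both. This difference between genotypes was not tested, because the Akita values chose the genes.

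**Figure D3:**
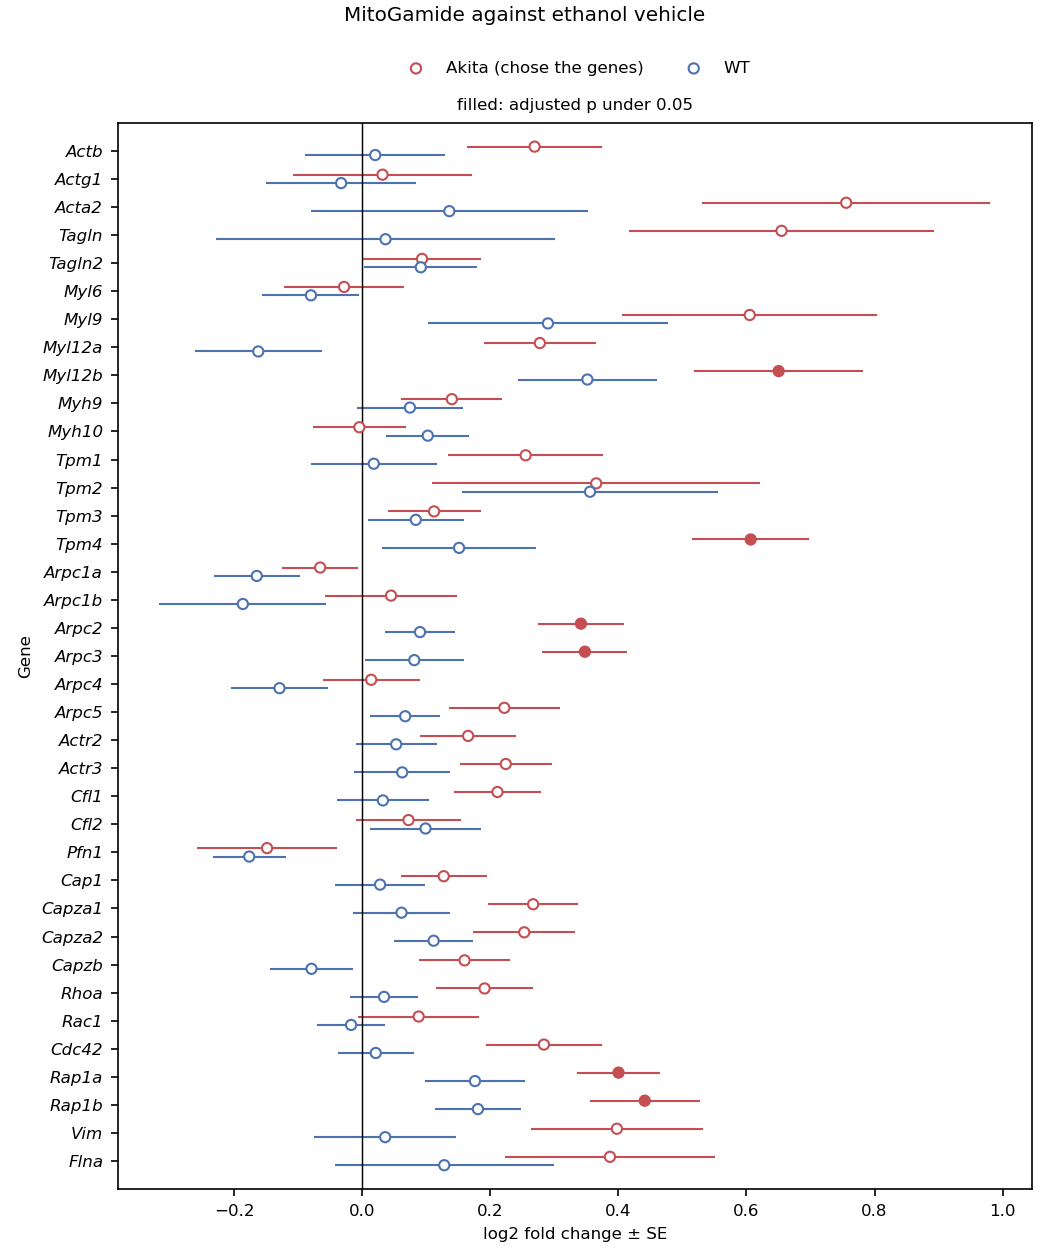
Log2 fold change ± SE of each of the 37 genes for MitoGamide against ethanol vehicle in Akita (red) and WT mice (blue), with filled symbols for an adjusted p under 0.05. Rap1a, Rap1b, Arpc2, Arpc3, Tpm4 and Myl12b are filled in Akita mice, no gene is filled in WT mice, and most red symbols lie to the right of the blue ones.

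Diabetes itself was next compared on the same vehicle, Akita ethanol against WT ethanol. This comparison shares the Akita ethanol libraries with the one that chose the genes, so a gene low in those 5 libraries is drawn down here and up there. Of the 37, 5 passed the adjusted p (13.5%), below the 16.4% of all 17747 genes, with 2 higher and 3 lower in Akita mice. The members' median log2 fold change was -0.043 against -0.0021 over all genes, and 12 of 37 were above 0. For 3 members the groups did not overlap, where 12.4% of all genes had such groups.

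Tagln2 (ENSMUSG00000026547.15, chr1:172500047-172507380, plus strand), a transgelin of non-muscle cells, had 38.4, 36.5, 44.3, 37.7 and 34 CPM in WT and 55.6, 52, 54.2, 55 and 46 CPM in Akita mice. Every Akita mouse was above every WT mouse, with a log2 fold change of 0.47 ± 0.075 (adjusted p = 0.00105). Arpc1b (ENSMUSG00000029622.16, chr5:145114215-145130705, plus strand), an Arp2/3 subunit, had 16.3, 20.7, 18.6, 19.2 and 17.5 CPM in WT and 21.5, 23.2, 21.7, 27.9 and 19.7 CPM in Akita mice. It rose by 0.31 ± 0.094 on the log2 scale (adjusted p = 0.0385), with replicate 4 the highest, and its alternative subunit Arpc1a had -0.018 ± 0.051.

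Capza1 had 45.5, 48.1, 47.9, 46.2 and 48.4 CPM in WT and 36.7, 38, 36.9, 40.1 and 40.8 CPM in Akita mice. All 5 Akita values were below the WT range, with a log2 fold change of -0.29 ± 0.052 (adjusted p = 0.00197). Its isoform Capza2 had -0.036 ± 0.066 and the shared partner Capzb -0.043 ± 0.050. Rap1a also fell, from 33.7 ± 3.37 CPM in WT to 26.3 ± 1.30 CPM in Akita mice (mean ± SD, n = 5), without overlap and with a log2 fold change of -0.35 ± 0.072 (adjusted p = 0.00457), while Rap1b had 0.019 ± 0.059 (adjusted p = 0.866). Myl12b fell too, with a log2 fold change of -0.39 ± 0.10 (adjusted p = 0.0220) and 1 of 5 Akita values inside the range of the WT values. Summed with the overlapping gene Gm49909, described below, the difference was -0.11 and did not pass (exact permutation test, two-sided p = 0.159).

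DESeq2 called 7 of the 37 and 17.6% of all genes. The other members named above were not called by edgeR, and of these DESeq2 called Cdc42 (adjusted p = 0.0373) and Myh9 (adjusted p = 0.0134). In edgeR Arpc3 had -0.21 ± 0.075 (adjusted p = 0.0751), Cdc42 -0.17 ± 0.060 (0.0642) and Myh9, the heavy chain of non-muscle myosin IIA, 0.17 ± 0.059 (0.0690). Rhoa (-0.11 ± 0.055), Actb (-0.15 ± 0.094), Vim (0.25 ± 0.13), Acta2 (-0.059 ± 0.15), Tagln (-0.0021 ± 0.20) and Myl9 (0.16 ± 0.17) did not pass either. Beside these values, the 6 proximal tubule markers summed to 18704 to 25696 CPM in WT and 11780.3 to 14898 CPM in Akita mice. The leukocyte sum was 58.7 to 85.8 and 39.9 to 55.4 CPM, and the smooth muscle and pericyte sum 316 to 359 and 272 to 298 CPM. None of the 3 overlapped. Mitochondrial transcripts took 20.1 to 22.6% of the counts in WT and 21.6 to 28.7% in Akita mice, and the part of these measures in the result was not tested. In a single fit of the 40 libraries, which called 4.92% of all genes, Tagln2 alone stayed called (adjusted p = 0.0225), with an adjusted p of 0.517 for Capza1, 0.534 for Rap1a, 0.370 for Myl12b and 0.180 for Arpc1b. With single libraries left out, Tagln2, Capza1 and Rap1a stayed called throughout, Myl12b in 5 and Arpc1b in 3 of the 10 such fits, and the count fell to 3 without Akita ethanol replicate 2 or WT ethanol replicate 1, where 12.2% and 12.3% of all genes were called.

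In the water arm the same comparison called none of the 37, where 0.552% of 18304 genes passed in edgeR. No member had an unadjusted p under 0.05, none was called by DESeq2, which called 1.93% of all genes, and none had groups that did not overlap, where 2.24% of all genes did. Tagln2 had 40.1, 31.2, 22.6, 28.5 and 37.7 CPM in WT water and 47, 28.2, 28.9, 46.6 and 33.1 CPM in Akita water mice. The groups overlapped, with a log2 fold change of 0.23 ± 0.17. Rap1a had 27.5, 11.2, 10.7, 13.6 and 34.4 CPM in WT and 24.5, 7.49, 13.4, 31.7 and 12.5 CPM in Akita mice, 2 clearly higher libraries in each group, and a log2 fold change of -0.089 ± 0.39. Capza1 had 37.2, 18.8, 16.4, 19.7 and 43.4 CPM and 38.4, 16, 23.2, 36 and 20.5 CPM (0.016 ± 0.28). Its high libraries were the same as those of Rap1a, namely replicates 1 and 5 of WT water and 1 and 4 of Akita water. The members' median was -0.049 with all libraries and -0.086 without the 5 libraries named above, and no member was called either way. Over all genes 0.552% were called with all libraries and 0.0217% without the 5. The 7 leukocyte markers summed to 50.7 to 71.3 CPM in WT water and 36 to 42.9 CPM in Akita water mice, without overlap, and their part was not tested.

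Whether the diabetes effect differed between the vehicle arms was tested as an interaction. None of the 37, and none of 18050 genes (0%), passed in edgeR, with 0 members under an unadjusted p of 0.05, and DESeq2 called 2 genes and no member. In edgeR 0 members and 0 genes were called without the 5 libraries. For Tagln2 the difference was 0.24 ± 0.19, adjusted p = 1.00, and for Rap1a -0.27 ± 0.41, adjusted p = 1.00 (log2 ± SE). A call in the ethanol arm alone is thus not shown to differ from the water arm, where the median SE of the 37 fold changes was 0.23 against 0.066.

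**Figure D4:**
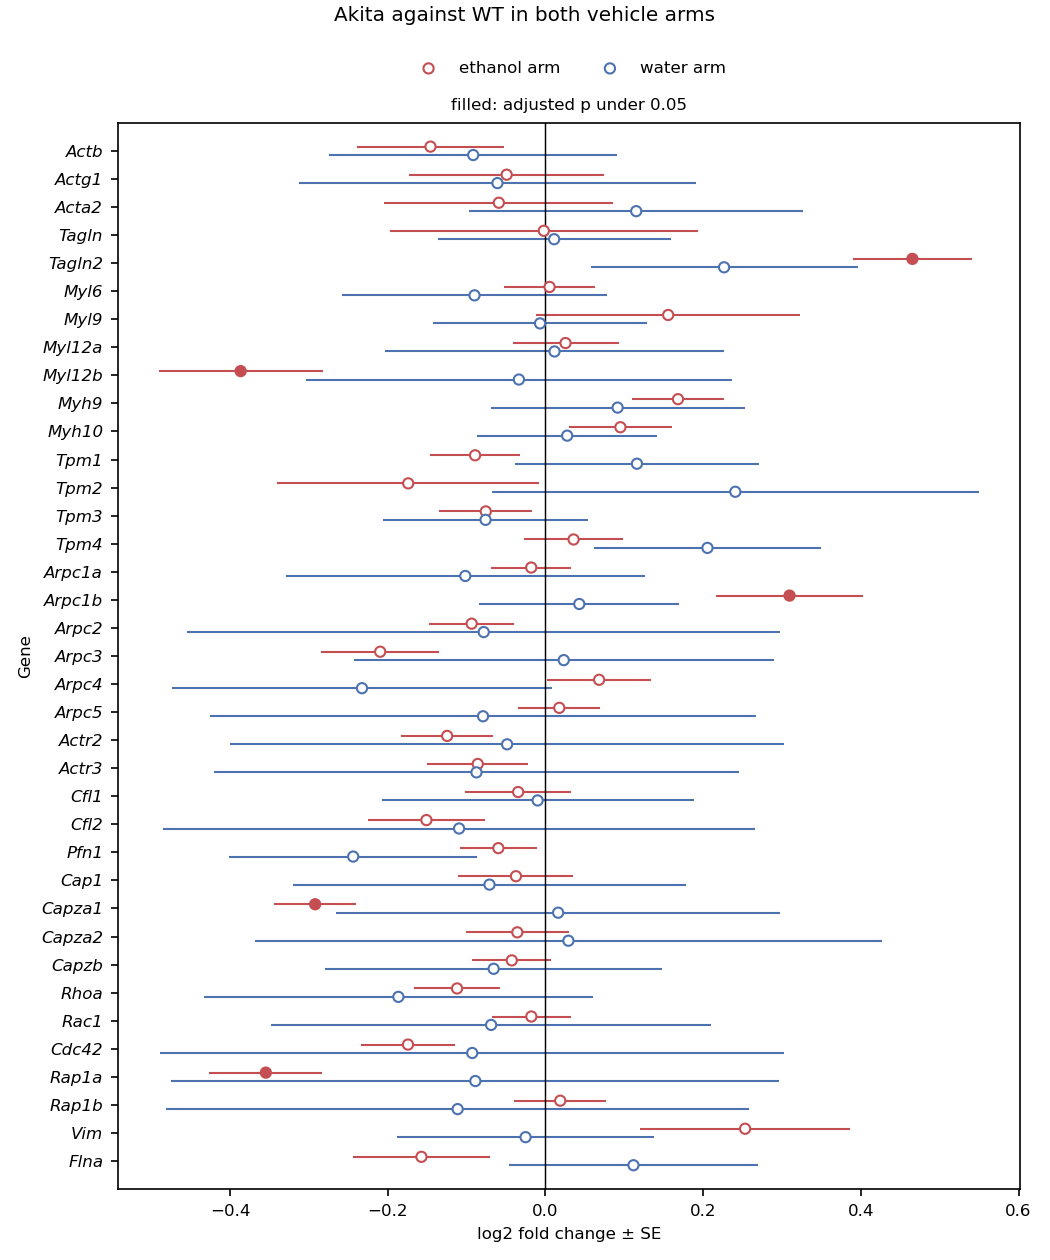
Log2 fold change ± SE of each of the 37 genes for Akita against WT mice in the ethanol arm (red) and the water arm (blue), with filled symbols for an adjusted p under 0.05. Tagln2, Myl12b, Arpc1b, Capza1 and Rap1a are filled in the ethanol arm, and the blue error bars of the water arm are wider for nearly all genes.

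MitoQ was compared with water in each genotype. In Akita mice none of the 37 and none of 18496 genes (0%) passed in edgeR or DESeq2, and no member had an unadjusted p under 0.05. No member had groups without overlap, where 0.222% of all genes did. Of the 37 log2 fold changes 28 were above 0, with a median of 0.069, which became -0.025 with 16 of 37 above 0 when the 5 libraries were left out. Rap1b had 49.2, 14.3, 31.4, 52.3 and 23.2 CPM on water and 70.1, 43, 32.2, 36.5 and 47.9 CPM on MitoQ, an overlapping spread with a log2 fold change of 0.38 ± 0.29. Arpc3 had 35.6, 14.6, 16.7, 31.1 and 18.4 CPM and 33.8, 25, 19.3, 21 and 27.3 CPM, a log2 fold change of 0.065 ± 0.22. The highest value of Rap1b was more than 2 times the lowest within either group. Tpm4 had 41.7, 29.3, 31, 43.1 and 30.2 CPM on water and 51.1, 38.3, 36.5, 32.6 and 46.1 CPM on MitoQ (0.16 ± 0.14), and Vim 18.5, 16.8, 15.2, 22.4 and 16.4 and 15.4, 16.5, 14.8, 16.4 and 15.8 CPM (-0.24 ± 0.11).

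In WT mice MitoQ gave the same count, with none of the 37 and none of 17881 genes (0%) called in edgeR, 2 genes and no member called in DESeq2, and no member under an unadjusted p of 0.05. No member's groups were without overlap, where 0.777% of all genes had such groups. The members divided evenly, with 18 above and 19 below 0 and a median of -0.00074, or -0.032 without the 5 libraries. Rap1a had 27.5, 11.2, 10.7, 13.6 and 34.4 CPM on water and 20.5, 26.2, 11.3, 29.9 and 23.6 CPM on MitoQ (0.19 ± 0.31). Tpm2 had 3.70, 5.12, 6.72, 7.20 and 4.65 CPM on water and 4.13, 3.73, 11.5, 4.89 and 5.40 CPM on MitoQ, where replicate 3, 1 of the 5 libraries that stood apart, was more than 2 times any other MitoQ value. Acta2 (-0.34 ± 0.22) and Myl12b (0.46 ± 0.29) had the lowest and the highest log2 fold change of the 37. The difference of the MitoQ effect between genotypes was called for none of the 37 and none of 18225 genes (0%) in edgeR, with 0 members under an unadjusted p of 0.05, and for 1 gene and no member in DESeq2. In edgeR 0 members and 1 genes were called without the 5 libraries.

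The vehicles themselves were compared last, ethanol against water in mice given no compound. In WT mice edgeR called none of the 37 and none of 18092 genes (0%), though 16 members and 4959 genes had an unadjusted p under 0.05, and DESeq2 called 3 members and 4.01% of all genes. Of the 37, 28 were above 0 with a median of 0.28 against -0.044 over all genes. With no filter on low counts the members' median was 0.38 against -0.12. For 2 members the groups did not overlap, where 3.52% of all genes did so. Capza1 had 37.2, 18.8, 16.4, 19.7 and 43.4 CPM on water, all below the 45.5 to 48.4 CPM on ethanol (0.73 ± 0.22). Myl6 (ENSMUSG00000090841.2, chr10:128490860-128494145, minus strand), the essential light chain of non-muscle myosin, had 132, 118, 78.5, 115 and 139 CPM on water and 159, 168, 170.0, 166 and 149 CPM on ethanol (0.39 ± 0.13). Without the 5 libraries the members' median was 0.11, and none of the 37 and 0% of all genes were called. Without WT water replicate 5 alone, 18 members were called, together with 28.6% of all genes.

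In Akita mice 3 of the 37 passed (8.11%), where 12.7% of 17928 genes passed, and 9 had groups without overlap, where 11.7% of all genes did. DESeq2 called 15 of the 37, and 23.8% of all genes. This comparison also uses the Akita ethanol libraries that entered the choice of the genes. The members' median log2 fold change was 0.31, and 0.40 with no filter on low counts, so sizes here depend on the scaling. Acta2 had 12.3, 16.4, 12.4, 15.9 and 14.2 CPM on water and 9.11, 10.9, 9.16, 6.40 and 10.8 CPM on ethanol, all ethanol values below all water values (-0.75 ± 0.16, adjusted p = 0.0296). Tpm2 (ENSMUSG00000028464.16, chr4:43514711-43523765, minus strand), a muscle tropomyosin, had 4.39, 10.4, 4.40, 6.34 and 6.30 CPM on water and 3.82, 4.15, 3.56, 2.35 and 3.99 CPM on ethanol, again without overlap (-0.97 ± 0.27, adjusted p = 0.0407). Myl6 went the other way, with 147, 85, 91.5, 122 and 92 CPM on water and 167, 176, 154, 163 and 153 CPM on ethanol (0.48 ± 0.13, adjusted p = 0.0375). None of the 3 was called without the 5 libraries, with adjusted p of 0.133 for Acta2, 0.178 for Tpm2 and 0.162 for Myl6. That fit called 0.0055% of all genes. When single libraries were left out, the count of called members was 0 in 7 of the 10 cases, 1 without Akita ethanol replicate 4, 22 without Akita water replicate 1 and 21 without Akita water replicate 4. The share of all genes called in the last 3 was 6.59%, 36.2% and 34.5%.

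The vehicle difference divided the genes by the base composition of their transcripts. Low-GC members had the larger values. The 18 members with a GC content under 50.7%, the median of the 37, had a median log2 fold change for ethanol against water of 0.56 in WT and 0.48 in Akita mice, and the other 19 of 0.12 and 0.24. All genes, here and below in this paragraph, are those with a protein-coding transcript, in WT mice 7614 low-GC and 6457 high-GC genes of 18092 tested. Divided at the same GC content, their medians were 0.17 and -0.069 in WT and 0.10 and 0.043 in Akita mice. Across the 37 genes, which come from the same libraries and are not replicates, the correlation of GC content with the fold change was r = -0.71 (rho = -0.73) in WT and r = -0.54 (rho = -0.61) in Akita mice. It was -0.66 for MitoQ in Akita mice and -0.44 in WT mice, 0.45 for diabetes in the ethanol arm, 0.23 for diabetes in the water arm, and -0.10 and -0.15 for MitoGamide in Akita and WT mice. With MitoGamide in Akita mice the low-GC and high-GC members had medians of 0.26 and 0.14, and all low-GC and high-GC genes of 0.10 and -0.053. In WT mice the members had 0.074 and 0.032, and all genes 0.056 and -0.085, so the median of all low-GC genes was above that of all high-GC genes in both genotypes.

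The 5 libraries that stood apart were all of the water arm, and the others include the whole ethanol arm. Ratios between them therefore also hold the difference between the arms. Of the 18 low-GC members, 16 had a lower median in the 5 libraries than in the others, with a median ratio of 0.378. Of the 19 high-GC members 16 did, with a median ratio of 0.726, so most members of either class were low there. Rap1b (GC 39.9%) had 14.3 to 26.8 CPM in the 5 and 26.4 to 99.9 CPM in the others, and Actr2 (GC 40.3%), the actin-related subunit of Arp2/3, 39.5 to 64 and 72.3 to 185 CPM. Myh9 (GC 57%) had 317 to 396 CPM in the 5 and 271 to 431 CPM in the others, and the filament crosslinker Flna (GC 54%) 112 to 143 and 78.7 to 188 CPM. The medians of 32 of the 37 genes were lower in the 5 libraries, and those of 13 were under 0.5 of the medians of the others. Among the 5 at or above the others were Tpm2 at 1.69 times and Acta2 at 1.31 times. Mitochondrial transcripts took 20.1 to 22.6% of the counts in WT ethanol and 14.3 to 37.3% in WT water mice, and 21.6 to 28.7% in Akita ethanol and 24.2 to 43.1% in Akita water mice. The 2 markers of the distal convoluted tubule summed to 809 to 934 CPM in Akita ethanol and 984 to 1501 CPM in Akita water mice, the one marker sum without overlap there. The part of base composition, mitochondrial share and these markers in the result was not tested. The labels do not say whether the arms differed in more than the vehicle, and any such difference cannot be told apart from it.

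**Figure D5:**
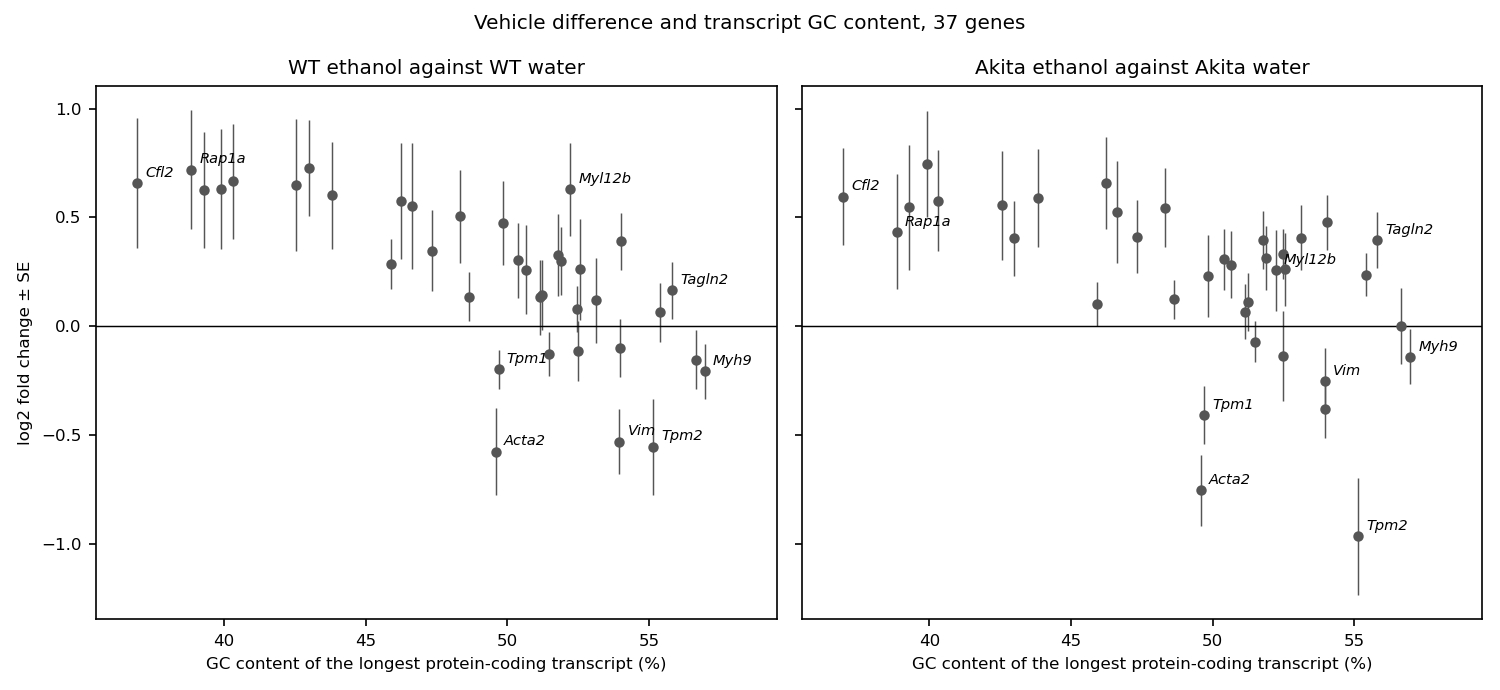
Log2 fold change ± SE of ethanol against water vehicle (vertical) by the GC content in percent of each gene's longest protein-coding transcript (horizontal), for the 37 genes in WT (left) and Akita mice (right). Cfl2 and Rap1a, with the lowest GC content, lie above 0 in both genotypes, while Tpm2, Acta2, Tpm1, Vim and Myh9, of middle to high GC content, lie below. By CPM, Myh9 had a mean of 356 in Akita ethanol and 356 in Akita water mice, so its sign depends on the scaling.

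Beyond the 37 genes, 100 further regulators of actin were listed, among them formins, WAVE and WASP proteins, kinases, and exchange factors and GTPase-activating proteins of small GTPases. This list too was drawn up with earlier results known, so its values for MitoGamide in Akita mice are a description. There edgeR called 1 of 99 (1.01%), the kinase Rock2 (0.37 ± 0.077), against 1.26% of all genes. DESeq2 called 13, against 5.99% of all genes. The list's median log2 fold change was 0.13 with 70 above 0. With MitoGamide in WT mice edgeR called none of 98, against 0% of all genes, and DESeq2 called 1, against 0.287%. An unadjusted p under 0.05 in edgeR was found for 15 of the 98 and for 1841 of all 17395 genes. The list's median there was 0.028. Diabetes in the ethanol arm called 21 of 98 (21.4%, against 16.4% of all genes), with 13 higher and 8 lower. Capg, a capping protein of macrophages and epithelia, rose (1.11 ± 0.16, adjusted p = 0.00052), as did Rap1gap, which switches Rap1 off (0.54 ± 0.088, adjusted p = 0.00117), and the scaffold Iqgap2 (0.48 ± 0.081, adjusted p = 0.00139). The Rap GTPase-activating protein Sipa1l1 fell (-0.50 ± 0.057, adjusted p = 0.0001), with the GTPase Rhoc (-0.35 ± 0.074, adjusted p = 0.00600) and the formin Diaph2 (-0.26 ± 0.056, adjusted p = 0.00735). The 2 Rap-inactivating genes named thus moved in opposite directions.

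In the other comparisons few regulators were called. Ethanol against water in Akita mice called 4 of 99 (4.04%, against 12.7% of all genes) in edgeR. The WAVE subunit Wasf2 (0.39 ± 0.094, adjusted p = 0.0334), Pfn2 (0.57 ± 0.15, adjusted p = 0.0390) and the GTPase-activating protein Arhgap1 (0.33 ± 0.10, adjusted p = 0.0476) were higher. The myosin phosphatase subunit Ppp1r12a was lower (-0.33 ± 0.095, adjusted p = 0.0441). None of these 4 genes was called without the 5 libraries, where 0.0055% of all genes were. DESeq2 called 19, and 23.8% of all genes. Diabetes in the water arm, MitoQ in either genotype and ethanol against water in WT mice called none of 98 in edgeR. The shares of all genes called were 0.552%, 0% (Akita), 0% (WT) and 0%. Under an unadjusted p of 0.05 were 5, 4 (Akita), 1 (WT) and 25 of the list, and 1384, 363, 575 and 4959 of all genes. Without the 5 libraries none of the list was called, where 0.0217%, 0.0106%, 0% and 0% of all genes were. The medians of the list in these 4 comparisons were 0.019, 0.010 (Akita), -0.012 (WT) and 0.11.

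The values of Myl12a and Myl12b are uncertain. A further annotated gene, Gm49909 (ENSMUSG00000117098.1, chr17:70974119-71002208, minus strand), spans most of Myl12b and of Myl12a on the same strand, so reads of these transcripts could be divided among them by the estimation of counts. Gm49909 had 21.7, 34.6, 24.2, 32.5 and 34.4 CPM in Akita ethanol and 32.6, 26.7, 28.9, 28 and 25.1 CPM in Akita MitoGamide mice. The sum of Myl12b and Gm49909 was 55.9, 64.7, 59, 59.9 and 60.5 CPM on vehicle and 70.7, 81.8, 73.5, 89.7 and 66.8 CPM on MitoGamide, so the treated mice stayed above the vehicle mice, with a difference of means of 0.34 on the log2 scale. For diabetes in the ethanol arm the sum differed by -0.11 (exact permutation test, two-sided p = 0.159), where Myl12b alone had -0.39. The sum was also lower in the mean, and its difference did not pass the test. For MitoGamide in WT mice the sum differed by 0.16 (exact permutation test, two-sided p = 0.167). This sum was formed after the values were seen, and it leaves out Myl12a, most of which Gm49909 also spans. With MitoGamide, Myl12a had a log2 fold change of 0.28 ± 0.088 in Akita and -0.16 ± 0.099 in WT mice. A sum that includes Myl12a was not formed, so the division of reads is not settled by these values. Named pseudogene copies were low, with Capza1-ps1 at most 0.919, Actr3-ps at most 0.435, Actb-ps1 at most 0.332 CPM in any library and Rap1a-ps2 at 0 counts in all. The close pairs Actb and Actg1, Rap1a and Rap1b, and Capza1 and Capza2 share stretches of sequence, and how their shared reads were divided was not tested.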

How the data were processed

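Renal cortex RNA from 40 mice was depleted of ribosomal RNA and made into directional libraries. The authors trimmed the reads, mapped them to GENCODE transcripts with kallisto (version 0.46.1 in the submitters' processing notes, with R 4.0.2 and build GRCm38) and summed transcripts per gene. The gene table that the authors deposited holds estimated counts as whole numbers, which were used without change. Their strand setting is not given in the sources used here.

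Each comparison was fitted on its own 10 libraries in R 4.3.3 with edgeR 4.0.16 (TMM, quasi-likelihood test), although the study used DESeq2, which was run as an alternative (1.42.0). Genes needed a mean of 10 counts, and p-values were adjusted over all genes tested (Benjamini-Hochberg). A call is an adjusted p under 0.05. The fit was tested on simulated data, but no result of that is given here and no value above rests on it. Fold changes are model estimates ± SE, with TMM factors taken from the filtered genes of the libraries compared. The SE was derived from the fold change and the F statistic of the quasi-likelihood test. The printed CPM use TMM factors from all genes of the 40 libraries. Ratios of CPM can therefore differ from the printed fold changes. Sums of 2 genes were compared with exact permutation tests.

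The members, lists and tests were chosen with earlier results of these data known. Values per library are given for members called in any comparison and for Actb, Acta2, Tagln, Myl9, Rap1a, Rap1b, Arpc3, Rhoa and Vim, and of the 100 regulators for up to 3 called genes per direction and comparison. Positions and transcript lengths are from GENCODE vM21 on GRCm38, and promoters from a RefSeq table on GRCm38.p6, in which Actb, Tagln, Rac1 and Rap1a were not matched. Alternatives were RLE normalization, DESeq2, no filter, a filter of 10 counts in each library, a single fit of the 40 libraries, a replicate block, leaving out each library, and, added after the data were seen, library totals and leaving out the 5 libraries that stood apart. Same-numbered libraries were not treated as pairs in the main fits, and their titles do not say whether they were paired. The median count per library was lowest for Tpm2, at 72.5, and 179 or more for the other members.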

Additional observations from a re-analysis of the deposited data

Results flagged for a closer look

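In 144 sets of 5 libraries (the genes with values above in each group, and the share of counts taken by the 37 genes) 5 values lay far from the other 4, where chance gives about 7.2. Tagln in Akita MitoGamide replicate 2 had 27.2 CPM, against 14.3 to 17.7 CPM in the other 4 mice. Tpm2 in WT MitoQ replicate 3 had 11.5 CPM, against 3.73 to 5.40, and the share of counts on the 37 genes in the same library was 0.126%, against 0.315 to 0.372%. Arpc3 in WT MitoGamide replicate 4 had 40.8 CPM, against 34.7 to 35.3. Rap1b in Akita ethanol replicate 1 had 67.3 CPM, against 59 to 61.2.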

How the results depend on the processing

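The count of called members depended on the fit, as did the share of all genes called, given in parentheses. With MitoGamide in Akita mice (6 called) it was 1 with all 40 libraries in one fit (0.240%) and 0 with the replicate block (0%). It was 1 with library totals (1.33%) and 0 to 9 with a library left out (0 to 4.67%). The members' median fell to 0.077 with library totals. For diabetes in the ethanol arm (5 called) the count was 1 with all 40 libraries in one fit (4.92%). With a library left out it was 3 to 6 (12.2 to 15.8%). For ethanol against water in WT mice (0 called) the count was 3 with DESeq2 (4.01%) and 3 with all 40 libraries in one fit (8.68%). With a library left out it was 0 to 18 (0 to 28.6%). In Akita mice (3 called) it was 15 with DESeq2 (23.8%), 1 with no filter (3.80%) and 8 with all 40 libraries in one fit (15.3%). It was 0 with the replicate block (0%), library totals (1.032%) or without the 5 libraries (0.0055%). With a library left out in Akita mice it was 0 to 22 (0.0055 to 36.2%). The cause was not tested. The other comparisons had no called member under any alternative. Members' medians near 0 changed sign with a library left out, with a range of -0.15 to 0.13 for diabetes in the water arm, -0.014 to 0.15 for MitoQ in Akita and -0.090 to 0.10 in WT mice, and library totals gave -0.18, 0.25 and -0.10. Counts of the 100 regulators are also given with the share of all genes called. MitoGamide in Akita mice (1 called) gave 13 with DESeq2 (5.99%) and 0 to 10 with a library left out (0 to 4.67%). It gave 0 with no filter (0.492%), all 40 libraries (0.240%), the replicate block (0%) and library totals (1.33%). In WT mice (0 called) it gave 1 with DESeq2 (0.287%). Diabetes in the ethanol arm (21 called) gave 5 with all 40 libraries in one fit (4.92%) and 16 to 22 with a library left out (12.2 to 15.8%). In the water arm (0 called) it gave 1 with all 40 libraries (2.97%). Ethanol against water in WT mice gave 4 with DESeq2 (4.01%), 8 with all 40 libraries (8.68%) and 0 to 31 with a library left out (0 to 28.6%). In Akita mice (4 called) it gave 19 with DESeq2 (23.8%), 2 with no filter (3.80%) and 14 with all 40 libraries (15.3%). It gave 0 with the replicate block (0%), library totals (1.032%) or without the 5 libraries (0.0055%). With a library left out in Akita mice it gave 0 to 30 (0.0055 to 36.2%). The 14 called pairs of member and comparison kept their direction in all 241 alternative fits and their call in 128. The correlation of same-numbered libraries ranged from -0.45 to 0.65, and no comparison had all 5 above 0.1. These values do not settle whether some libraries were paired. The replicate block moved no other count of called members or regulators by over 1.5 times. With it the count over all genes went from 101 to 32 for diabetes in the water arm and from 214 to 0 for MitoGamide in Akita mice. For ethanol against water in Akita mice it went from 2283 to 0. In WT mice given MitoGamide, library totals lowered the median of all genes to -0.10, so that log2 fold changes near 0 had to change sign, to -0.073 (Actb), -0.061 (Tagln), -0.010 (Arpc3), -0.061 (Rhoa) and -0.064 (Vim). They changed with the replicate block to -0.070 (Tagln), and with a library left out they ranged from -0.045 to 0.10 (Actb), -0.039 to 0.27 (Acta2), -0.27 to 0.22 (Tagln) and -0.037 to 0.12 (Vim). Counts of 27 to 147 per library limit Tpm2.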
